A study of Mus musculus with 4 samples.

Results

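The 9 genes described here are known as products of the gastric glands or as markers of the stomach: Pgc, Cym, Ctse and Lipf encode digestive enzymes, Atp4a and Atp4b the subunits of the acid pump, Gif the intrinsic factor, Vsig1 a junction protein and Gast the hormone gastrin. They were chosen by name, and all 9 were found among the 22462 symbols of the normalized expression table. The table holds RNA-seq values, in FPKM (fragments scaled for transcript length and library size), of jejunal epithelium from adult mice of a 129xC57/Bl6xSvJ mixed background. There were 2 control libraries from Cre- mice and 2 libraries labelled Hnf4a-/-;Cdx2-/-, the double knockout of 2 transcription factors of the intestinal epithelium. Every mouse, controls included, had received tamoxifen, which activates the Cre recombinase in mice that carry it; neither the labels nor the files name the promoter that drives Cre. Whole epithelium was measured, so more cells that express a gene and more RNA per cell cannot be told apart.

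As a check of the labels, Hnf4a stood at 156 and 202 FPKM in control replicates 1 and 2 and at 31.6 and 48.2 in the labelled double knockouts. Cdx2 went the other way, from 70.9 and 65.2 to 159.8 and 161.0 FPKM. Which exons were removed is not given here, and reads from exons that remain count towards a gene, so the Cdx2 value cannot check its label and goes against it in direction; the group is therefore called the labelled double knockout. Enterocyte markers were expressed in all 4 libraries, though not all at the control level. Fabp1, a fatty acid binding protein of enterocytes, lay between 5532 and 10015 FPKM, and all 10 enterocyte markers passed the filter on low values. Of these, 3 were called lower (Vil1, Sis and Epcam) and 0 higher. Sis fell from 462 and 1554 FPKM in the controls to 57.1 and 25.7 in the labelled double knockouts. The mean of Vil1 fell from 997 to 497 FPKM and that of Epcam from 1208 to 529. The calls of Vil1 and Epcam were lost in 6 of 13 alternative fits, those with any 1 library left out among them. The replicate block was another (limma, adjusted p = 0.101 and 0.0753). The call of Sis was lost in 4. The summed FPKM per library was between 643744 and 689304. Depth is unknown, since only FPKM values are given.

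In the stomach these products belong to different cells. Chief cells at the gland base store inactive proteases, which acid from parietal cells converts to active enzymes; parietal cells pump protons out in exchange for potassium; mucous cells line the pits; and G cells of the antrum release gastrin, which stimulates acid secretion. The small intestine normally receives these enzymes from the stomach and makes its own digestive enzymes on the brush border. CDX2 is known as a factor that keeps intestinal epithelium from a gastric fate, and HNF4A as a regulator of enterocyte genes.

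The labelled double knockout libraries expressed part of this gastric set. Ctse, Pgc, Vsig1, Atp4a and Gif were higher, Cym was lower, and Atp4b, Lipf and Gast were at or close to 0 in all 4 libraries. Of the 9 genes, 6 averaged 1 FPKM or more and were tested with limma; 5 were called higher and 1 lower (adjusted p under 0.05 over all 10885 genes tested). Across all genes tested, 9.56% were called, 3.77% higher (410) and 5.8% lower (631); with the FPKM estimated for each library alone the split was 482 higher and 451 lower. The 5 genes that rose passed the filter only through the labelled double knockout libraries, and Cym only through the controls, so a difference was built into which genes could be tested, and the count of 6 carries no support of its own.

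**Figure D1:**
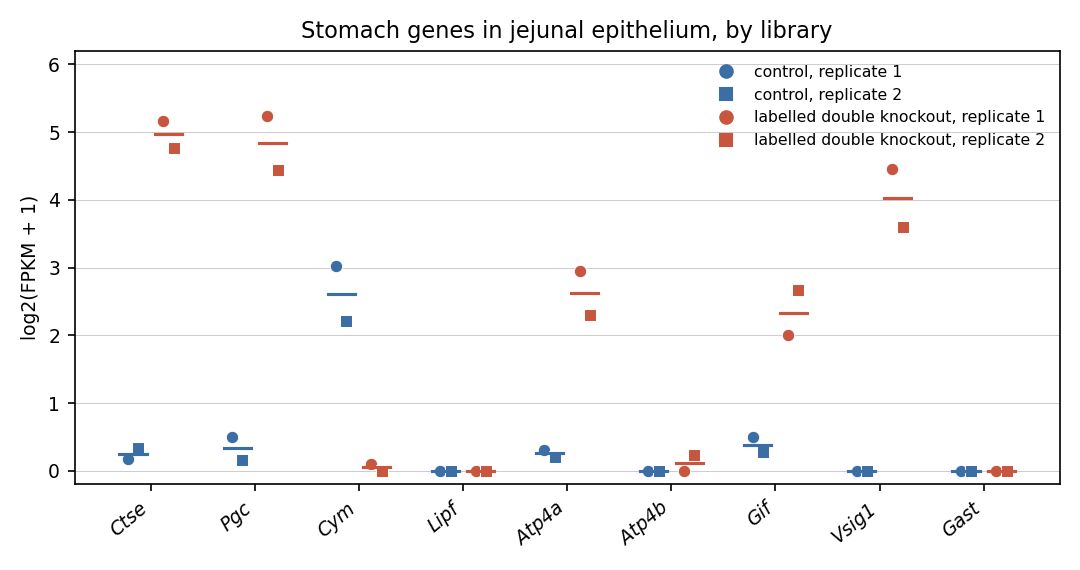
FPKM of the 9 stomach genes in each of the 4 libraries, on the vertical axis as log2(FPKM + 1); circles are replicate 1, squares replicate 2, and the bar is the mean of the 2 log2 values of a group. Ctse, Pgc and Vsig1 stand highest in the labelled double knockouts, Cym is the only gene higher in controls, and Lipf and Gast lie at 0 throughout.

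The promoters of the genes that rose and of the gene that fell are shown because these genes moved under the same genotype. The windows are the 250 bases before the transcription start, from RefSeq on GRCm38.p6, which is not the build of the expression files (mm9), and are written 5′ to 3′ on the strand of the gene. Promoter sequences were matched for 7 of the 9 genes; Ctse and Atp4b had no entry. They lie at chr17:47726592-47726841 (Pgc, plus strand), chrX:140907358-140907607 (Vsig1, plus strand), chr7:30711959-30712208 (Atp4a, plus strand), chr19:11747309-11747558 (Gif, listed under its newer symbol Cblif, plus strand) and chr3:107221733-107221982 (Cym, minus strand). Capitals mark a match to TTTATNG on either strand, a simple form of the site bound by CDX factors.
Pgc: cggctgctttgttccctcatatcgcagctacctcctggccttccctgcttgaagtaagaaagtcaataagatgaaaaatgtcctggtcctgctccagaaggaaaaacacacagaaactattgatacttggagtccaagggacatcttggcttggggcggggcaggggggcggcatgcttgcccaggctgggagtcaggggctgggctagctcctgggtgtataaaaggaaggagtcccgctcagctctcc
Vsig1: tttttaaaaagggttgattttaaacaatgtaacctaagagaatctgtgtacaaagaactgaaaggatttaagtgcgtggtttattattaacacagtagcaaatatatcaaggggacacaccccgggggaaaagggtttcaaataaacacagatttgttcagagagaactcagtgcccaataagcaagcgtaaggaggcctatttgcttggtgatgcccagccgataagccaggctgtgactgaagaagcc
Atp4a: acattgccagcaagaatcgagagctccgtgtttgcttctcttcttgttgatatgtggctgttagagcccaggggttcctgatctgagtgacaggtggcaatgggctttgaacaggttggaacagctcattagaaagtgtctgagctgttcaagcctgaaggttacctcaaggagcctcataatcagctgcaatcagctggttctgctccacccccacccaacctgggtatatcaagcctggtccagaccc
Gif: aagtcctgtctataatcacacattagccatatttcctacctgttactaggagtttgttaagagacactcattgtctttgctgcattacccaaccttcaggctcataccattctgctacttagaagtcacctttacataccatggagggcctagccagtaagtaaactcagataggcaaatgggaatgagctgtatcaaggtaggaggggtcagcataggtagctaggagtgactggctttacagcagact
Cym: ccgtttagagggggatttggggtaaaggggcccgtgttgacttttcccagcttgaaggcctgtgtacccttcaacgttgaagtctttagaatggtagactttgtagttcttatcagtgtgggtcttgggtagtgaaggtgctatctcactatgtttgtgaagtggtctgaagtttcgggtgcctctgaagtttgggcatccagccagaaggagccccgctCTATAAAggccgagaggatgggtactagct

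The letters TTTATNG were found on either strand in 9.81% of 32851 windows of this length. Among the 5 windows printed only that of Cym held them, on the reverse strand, as CTATAAA ending 23 bases before the start, where they overlap its TATAAA box. Of the 2 windows matched but not printed, that of Lipf held 1 match (TTTATTG on the same strand) and that of Gast 0. CAAAGTCCA, a form of the HNF4 site, was searched on both strands and was in none of the 7 windows, and in 0.384% of all windows. TATAAA on the strand of the gene was in the windows of Pgc (ending 25 bases before the start) and Cym, and in 7.59% of all windows. The motifs were chosen with the expression results known. A match describes letters in these windows only.

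Among the enzymes, Ctse showed the greatest log2 difference of the 9 genes with a pseudocount of 1; with 0.1 or 0.01 that of Vsig1 was greater (7.26 against 6.73, and 10.57 against 7.29), and with 0.01 so was the size of that of Cym (-7.46). Ctse encodes cathepsin E, an aspartic protease of gastric mucous cells. Ctse stood at 0.128 and 0.262 FPKM in control replicates 1 and 2 and at 35.0 and 26.3 FPKM in labelled double knockout replicates 1 and 2. The groups did not overlap. Such separation carries little weight here and for the genes below, since an exact permutation test of 2 against 2 libraries cannot give a p under 0.333. The Ctse means (0.195 ± 0.0945 and 30.6 ± 6.17, SD, n = 2 each) differed 157-fold. The log2 fold change of FPKM + 1 was 4.71 ± 0.21 (SE, limma, adjusted p = 0.00136). By rank among all symbols Ctse moved from 13304 and 12411 in the controls to 2406 and 2983. The gene lies at chr1:133534891-133572084 in mm9.

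Pgc encodes progastricsin, the zymogen of pepsin C. It stood at 0.417 and 0.122 FPKM in the controls and at 36.9 and 20.7 FPKM in the labelled double knockouts, again with no overlap. The group means were 0.269 ± 0.209 and 28.8 ± 11.4 FPKM (SD, n = 2 each), a 107-fold difference, and the log2 fold change was 4.51 ± 0.32 (SE, limma, adjusted p = 0.00444). Both Ctse values in the labelled double knockouts lay between the 2 Pgc values. Pgc lies at chr17:47863791-47871427 in mm9.

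Cym changed in the opposite direction. It encodes chymosin, the milk-clotting protease of the newborn stomach in many mammals and a relative of pepsin. The controls held 7.12 and 3.62 FPKM, and the labelled double knockouts 0.0733 FPKM and a value listed at 0. Both controls were above both labelled double knockouts. The log2 fold change of FPKM + 1 was -2.56 ± 0.32 (SE, limma, adjusted p = 0.0150). No ratio is given because 1 library is listed at 0. In the estimates made for each library alone, the interval of Cym in labelled double knockout replicate 1 also reached 0 (0 to 0.158 FPKM). Cym lies at chr3:107014213-107024650 in mm9.

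Lipf, the gene of gastric lipase, was listed at 0 in all 4 libraries and could not be tested. In the estimates made for each library alone it was also at 0, and each estimate was marked OK. Depth is unknown, so this does not show absence. Pga5, the gene of the other major pepsinogen of the mouse stomach and not among the 9, reached at most 0.122 FPKM in any library.

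The pepsin-like aspartic proteases as a family did not move together. Of 9 listed, 8 were found and 6 tested, of which 3 were called higher (Pgc, Ctse and Bace2) and 1 lower (Cym). Bace2, a membrane-bound member best known for cutting amyloid precursor protein and other surface proteins, rose 2.46-fold, from 4.26 ± 0.111 to 10.5 ± 1.05 FPKM (SD, n = 2 each; adjusted p = 0.0204, limma). Ctsd, the lysosomal cathepsin D and the most abundant of the family, stood at 132 ± 9.07 and 131 ± 29.3 FPKM (SD, n = 2 each) and was not called (limma, adjusted p = 0.953). Bace1 was not called either, at 3.08 and 2.51 FPKM. The call of Bace2 was lost whichever library was left out, at limma adjusted p-values of up to 0.114.

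**Figure D2:**
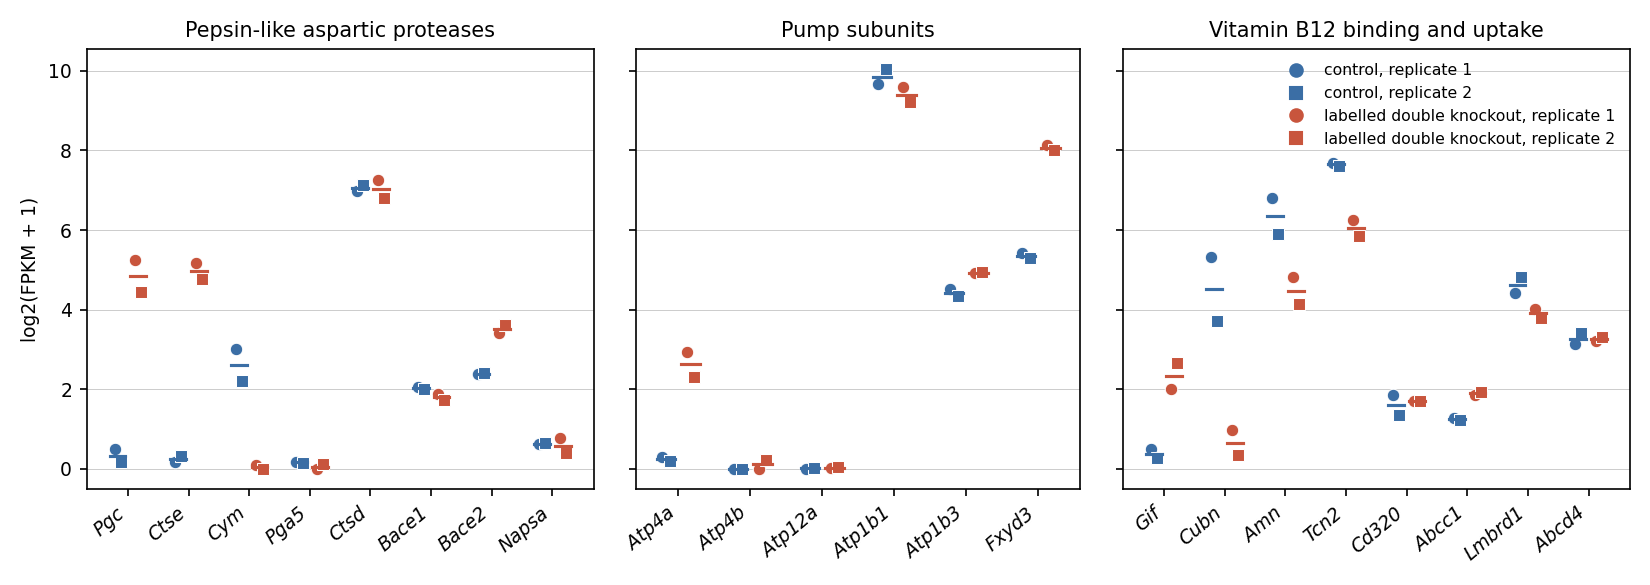
Values of the aspartic protease family (8 genes found), of pump subunits (6 of the 15 genes listed) and of vitamin B12 binding and uptake (8 of the 9 listed) in each library, as log2(FPKM + 1); circles are replicate 1, squares replicate 2, and bars are group means of the log2 values. Pgc and Ctse are higher and Cym lower in the labelled double knockouts beside a level Ctsd; Atp4a is higher with Atp4b near 0; Gif is higher while Cubn and Tcn2 are lower.

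The subunits of the gastric acid pump differed from each other. Atp4a encodes the catalytic alpha subunit, which exchanges protons for potassium. It was at 0.240 and 0.153 FPKM in the controls and at 6.72 and 3.95 FPKM in the labelled double knockouts, with no overlap. The means were 0.197 ± 0.0614 and 5.33 ± 1.96 FPKM (SD, n = 2 each), a 27.1-fold difference, with a log2 difference of 2.37 ± 0.28 (SE; adjusted p = 0.0129, limma). Atp4b encodes the beta subunit, which the alpha subunit needs to fold and reach the membrane. Atp4b was listed at 0 in both controls and in labelled double knockout replicate 1, and at 0.176 FPKM in replicate 2. Its mean was too low for the test. When every gene above 0 was admitted, its log2 fold change was 0.12 (limma, adjusted p = 0.506). Atp4a lies at chr7:31497228-31510553 and Atp4b at chr8:13386209-13396778 in mm9.

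Other pump subunits were also measured. Atp1b1, a beta subunit of the sodium-potassium pump, stood at 929 ± 170 FPKM in controls and 680.1 ± 126 in the labelled double knockouts (SD, n = 2 each), and was not called (limma, adjusted p = 0.312). Atp12a, the non-gastric proton pump, did not exceed 0.0263 FPKM. Apart from Atp4a, the 1 gene called among the 5 others tested was Fxyd3, a small regulator of the sodium-potassium pump, which rose from 39.8 ± 2.50 to 268 ± 15.9 FPKM (SD, n = 2 each), 6.73-fold (limma, adjusted p = 0.00272).

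Genes of acid secretion were mixed. Besides Atp4a, 11 of the listed genes were tested, and 5 were called higher and 0 lower. Car2, a carbonic anhydrase that supplies protons in many epithelia, rose from 12.7 ± 1.27 to 640.0 ± 146 FPKM (SD, n = 2 each), 50.5-fold (limma, adjusted p = 0.00133). The potassium channel gene Kcnj15 rose from 0.145 to 5.01 FPKM and Clic6, a chloride channel family member, from 6.24 to 34.0 (limma, adjusted p = 0.00689 and 0.00828). The others called were Aqp4, a water channel of parietal cells (11.2 to 36.6 FPKM), and Kcnq1, the potassium channel that works beside the pump (20.5 to 52.9). Kcne2, the partner of Kcnq1 in parietal cells, was listed at 0 in every library, as were Slc26a7, an anion exchanger, and Cckbr, the gastrin receptor. Hrh2, the histamine receptor of parietal cells, did not exceed 0.107 FPKM. Several genes called here, Car2 and Kcnq1 among them, are made in intestinal epithelium too. The calls of Car2, Kcnj15 and Clic6 were kept with any 1 library left out; that of Kcnq1 was lost with each (limma, adjusted p of up to 0.0952) and that of Aqp4 without control replicate 2 or either labelled double knockout (up to 0.134).

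Gif encodes intrinsic factor, which binds vitamin B12 so that it can be taken up in the ileum; in mice it is made mainly by chief cells. Gif stood at 0.407 and 0.216 FPKM in the controls and at 3.01 and 5.35 FPKM in the labelled double knockouts. The groups did not overlap, and the means were 0.312 ± 0.135 and 4.18 ± 1.65 FPKM (SD, n = 2 each), 13.4-fold apart, and the log2 difference was 1.95 ± 0.29 (SE; adjusted p = 0.0220, limma). With every library Gif had the smallest log2 rise of the 5; without labelled double knockout replicate 1 that of Atp4a was smaller (2.05 against 2.28). It lies at chr19:11822049-11837937 in mm9.

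Genes that act after intrinsic factor were lower or not called. Of the 7 other tested genes of vitamin B12 uptake, 3 were called lower and 0 higher. Cubn, the intestinal receptor of the intrinsic factor complex, fell from 39.0 and 12.2 FPKM to 0.980 and 0.265 (limma, adjusted p = 0.0213). Amn, its membrane anchor, fell from 110.2 and 58.4 FPKM to 27.1 and 16.7 (limma, adjusted p = 0.0497). Tcn2, the carrier of vitamin B12 in blood, fell from 200 ± 8.34 to 65.6 ± 12.8 FPKM (SD, n = 2 each), 3.05-fold (limma, adjusted p = 0.0147). Cd320, the cell receptor of that carrier, stood at 2.08 and 2.28 FPKM and was not called. The call of Amn was lost in 10 of 13 alternative fits, those without any 1 library among them (limma, adjusted p of up to 0.161). The call of Cubn was lost in 4 of the 13 (up to 0.0851) and that of Tcn2 without either control (up to 0.0839).

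Vsig1 encodes an immunoglobulin-like protein of cell junctions that marks gastric epithelium. It was listed at 0 in both controls and stood at 21.0 and 11.1 FPKM in the labelled double knockouts, below only Ctse and Pgc among the 9 genes. No fold is given against a group listed at 0. Its log2 difference depends on the pseudocount, at 4.03 ± 0.32 with a pseudocount of 1 (SE, limma, adjusted p = 0.00624), 7.26 with 0.1 and 10.57 with 0.01, and it was called with each. Vsig1 lies at chrX:137442147-137474011 in mm9.

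Among relatives of Vsig1, 4 others were tested and 1 was called. Vsig2, another immunoglobulin-like surface protein, rose 91.1-fold, from 0.278 ± 0.183 to 25.3 ± 0.859 FPKM (SD, n = 2 each; adjusted p = 0.00133, limma). Gpa33, the intestinal antigen A33 of the same family, stood at 299 ± 36.7 and 267 ± 3.72 FPKM (SD, n = 2 each) and was not called (limma, adjusted p = 0.622). Cxadr, the coxsackievirus and adenovirus receptor, was also not called, at 44.3 and 44.2 FPKM.

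Genes of the gastric surface and neck mucous cells, where Vsig1 is made, gave the most calls of these lists. Besides Vsig1, 9 of 10 tested were called higher and 0 lower, against 3.77% and 5.8% of all genes tested. Gkn1, Gkn2, Tff2, Anxa10, Aqp5 and Cldn18 averaged at most 0.106 FPKM in controls and passed the filter only through the labelled double knockouts. Muc5ac, Muc6 and Tff1 were under the filter and are not in the count. The count therefore describes the list only. Gkn2, Gkn1 and Tff2, secreted peptides of gastric mucous cells, reached 761 to 1789, 513 to 1122 and 244 to 400 FPKM per labelled double knockout library, far above every one of the 9 genes. The gastric mucins did not follow: Muc5ac and Muc6 were at most 0.0308 FPKM in any library, and Tff1 was listed at 0 in all.

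Gast, the gene of gastrin, was listed at 0 in all 4 libraries, as was Cckbr, its receptor. Cck, which encodes the related intestinal hormone cholecystokinin, fell from 46.6 and 36.4 FPKM to 12.04 and 9.37 (log2 fold change -1.86 ± 0.21, SE, limma, adjusted p = 0.0117), a call lost without either control (up to 0.0630). It was the 1 gene called of 5 tested in the list of stomach endocrine cells, several of which the intestine makes too. Somatostatin (Sst) stood at 75.0 ± 14.0 and 39.2 ± 29.1 FPKM (SD, n = 2 each) and was not called (limma, adjusted p = 0.255). Labelled double knockout replicate 1 decides this: without it Sst was called lower (log2 fold change -1.94, limma, adjusted p = 0.0308), and without replicate 2 the difference was -0.31.

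Of 10 stomach regulators listed, 2 passed the filter. Sox2 and Barx1, transcription factors of the developing stomach, were listed at 0 in every library. Foxq1, a factor of gastric mucous cells, was called higher (3.796 to 9.03 FPKM, limma, adjusted p = 0.0491), a call lost in 11 of 13 alternative fits. Gata5, a factor of gut epithelium, stood at 30.7 and 22.8 FPKM and was not called. Of the secretory genes listed for chief cells, 4 besides the 9 were tested and 1 was called. Rab3d, a small GTPase of secretory granules, rose from 14.2 ± 1.17 to 30.3 ± 4.74 FPKM (SD, n = 2 each; adjusted p = 0.0329, limma), a call lost in 6 of 13. Bhlha15, a regulator of zymogen storage, stood at 2.97 and 2.96 FPKM and was not called (limma, adjusted p = 0.991). Cpe, a carboxypeptidase of secretory granules, stood at 12.4 and 37.3 FPKM in controls and 4.35 and 4.43 in the labelled double knockouts and was not called (limma, adjusted p = 0.0698); it was called lower without control replicate 1 (0.0294). Rnase1 was not called, at 28.7 and 25.9 FPKM.

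Over all lists of related roles and families, without the 9 genes and the targeted genes, 90 symbols were found and 54 tested; 19 were called higher and 4 lower, at a median log2 fold change of 0.22 against 0.02 over all genes tested. The called share was 42.6%, against 9.56% of all genes. The lists overlap, they were chosen with earlier results of these libraries known, and the filter admits scarce genes through the group in which they are high, so this share describes the lists only. The number called was 13 to 15 when 1 library was left out.

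**Figure D3:**
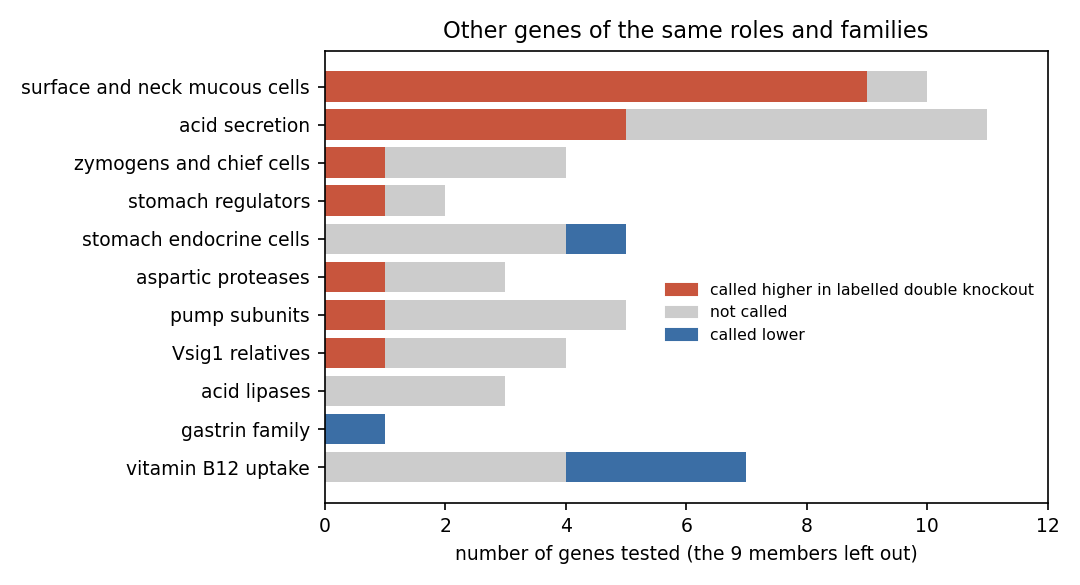
Number of tested genes in each list of related roles and families, the 9 genes left out, split into called higher, not called and called lower in the labelled double knockouts (limma, adjusted p under 0.05). The list of surface and neck mucous cells has 9 of 10 genes called higher, and the list of vitamin B12 uptake 3 of 7 called lower. Across all genes tested, 3.77% were called higher and 5.8% lower. Listed genes under the filter are not counted.

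Set in order of level in the labelled double knockouts, Ctse and Pgc came first and did not differ beyond their spread, at 26.3 to 35.0 and 20.7 to 36.9 FPKM. Vsig1 followed at 11.1 to 21.0, touching the lower value of Pgc. Atp4a (3.95 to 6.72) and Gif (3.01 to 5.35) overlapped each other and lay below Vsig1, and Atp4b, Cym, Lipf and Gast were under 0.2 FPKM. In the controls the order was another: Cym came first, Pgc, Gif, Ctse and Atp4a all lay between 0.122 and 0.417 FPKM and overlapped, and the rest were listed at 0.

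The labelled double knockout libraries also differed from each other. Replicate 1 was higher than replicate 2 for Vsig1 (1.89-fold), Pgc (1.78-fold), Atp4a (1.70-fold) and Ctse (1.33-fold), while for Gif the ratio was 0.563. The median of this ratio was 1.02 over all genes tested and 1.08 over the genes called higher. The spread of the ratio over genes was not computed. Replicate 1 was also higher for every surface and neck mucous gene called higher, from Capn8 (7.37 against 6.86 FPKM) to Gkn2 (1789 against 761). Kcnq1 went the other way (48.8 against 56.9). The lean towards replicate 1 was therefore not particular to these 4 genes. Between the controls, replicate 1 was higher for Pgc, Cym, Gif and Atp4a (1.57-fold to 3.43-fold) and lower for Ctse (0.489). With 2 libraries a group these differences have no test.

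Leaving out 1 library at a time leaves 1 arm with a lone library, assumed to vary like the others, and several adjusted p-values then lay close to 0.05 on either side. Ctse and Pgc were called in each of the 4 such fits, with a highest adjusted p from limma of 0.0287 and 0.0470. Vsig1 lost its call without control replicate 1 (limma, adjusted p = 0.0546) or 2 (0.0540), and Atp4a likewise (0.0697 and 0.0798), at log2 fold changes of 4.03 in both fits for Vsig1 and 2.42 and 2.32 for Atp4a, close to those with every library. Gif lost it without either control (0.0863 and 0.113) or without labelled double knockout replicate 2 (0.0573). Cym lost it without control replicate 1 (limma, adjusted p = 0.0592) or labelled double knockout replicate 2 (0.0595). In each fit the direction of all 6 genes was kept, and the number of the 9 called was 2 to 6.

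**Figure D4:**
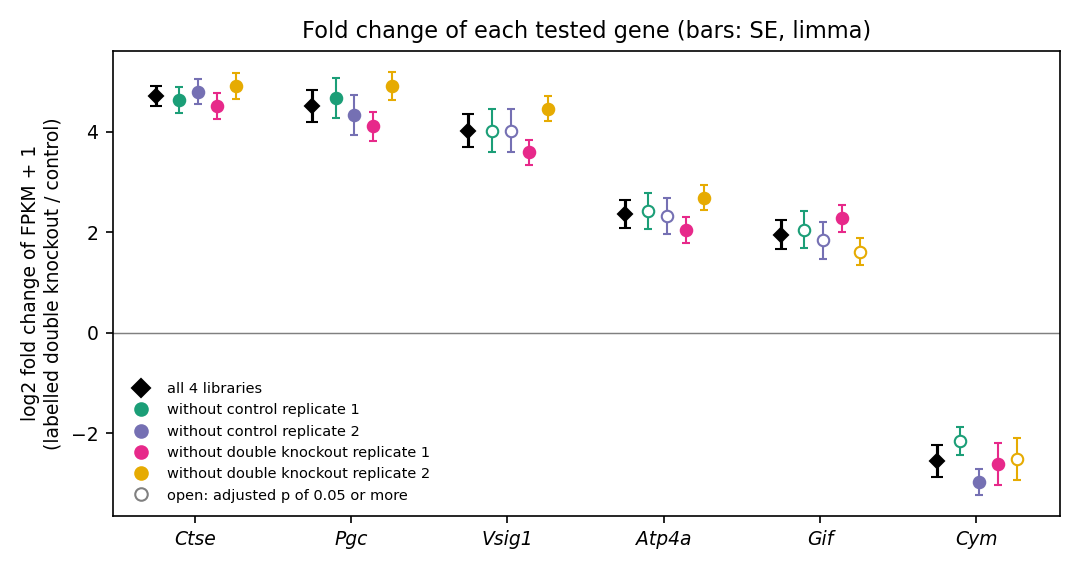
Log2 fold change of FPKM + 1, labelled double knockout over control, of the 6 tested genes with all 4 libraries (diamonds) and with 1 library left out (circles); bars are the SE from limma, and open circles have an adjusted p of 0.05 or more. Ctse and Pgc stay filled throughout, and Gif has 3 open circles.

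The authors' deposited table, computed from the same libraries and therefore not independent, calls 13.2% of the genes it tested. Among the 9 it calls Ctse (q = 0.0110), Pgc (q = 0.0230), Gif (q = 0.0144), Atp4a and Vsig1 (q = 0.000868 for both). The authors' deposited table does not call Cym (q = 0.571), although its group values are 5.60 FPKM in control and 0.0384 in the knockout. It left Atp4b, Lipf and Gast untested.

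The genes whose levels over the 4 libraries were nearest to each tested gene, by Euclidean distance of log2(FPKM + 1), were listed as a description of likeness. For Ctse the nearest was Pgc and for Pgc it was Ctse (distance 0.5 log2 units); Vsig2 and Syt8, a synaptotagmin, came next for both. Vsig1 was nearest to Cldn18, the claudin of stomach and lung tight junctions, at a distance of 0.188. Cldn18 stood at 0.0372 and 0.0835 FPKM in the controls and 18.97 and 10.95 in the labelled double knockouts. Mal and Mfi2 followed for Vsig1. For Atp4a the nearest were Paqr5, 1700016K19Rik and Lynx1, for Gif Sult1a1, Akap2 and Arhgdig, and for Cym Gpr133, Olfr165 and Mro. Each of these genes was called, those near Cym lower and the others higher. They were chosen for levels near those of a called gene, so these calls carry no support of their own. Of these calls, those of Ctse, Pgc and Vsig2 were kept with any 1 library left out. Those of Gpr133 and Olfr165 were lost without control replicate 1. Gpr133 also lost its call without labelled double knockout replicate 2, and Olfr165 with a pseudocount of 0.01. The others were lost without either control, and Mro in all 4 fits with 1 library left out. Sult1a1 and Arhgdig also lost theirs without labelled double knockout replicate 2. Arhgdig lost its call with both other pseudocounts too, and with no filter but a mean above 0. With 4 libraries such nearness reflects the 2 group levels for the most part.

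Of the 18 neighbouring genes on the chromosome, 9 were under the filter and 1 of the rest was called, against 9.56% of all genes tested. None was called in the direction of the stomach gene beside it. With so few tested, and no called direction for Atp4b, Lipf and Gast, this carries little weight. None of the 9 genes overlapped another gene of the table in mm9. Tfeb, which starts 2558 bases after Pgc, was the 1 neighbour called, and in the other direction (7.95 to 3.67 FPKM, limma, adjusted p = 0.0466), a call lost in 8 of 13 alternative fits. Tmem147, 2166 bases after Atp4a, was higher in both labelled double knockouts (means of 75.7 and 129.8 FPKM, log2 fold change 0.77) but was not called (limma, adjusted p = 0.0775). The neighbours of Ctse and Cym were under the filter, and Psmd10, after Vsig1, stood at 17.5 and 18.6 FPKM.

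Markers of other cell types were set beside these values. Of 9 markers of squamous epithelium, which lines the forestomach and oesophagus, 0 passed the filter, 5 were listed at 0 in every library, and the list summed to 0.127 and 0.325 FPKM in controls and 0.409 and 0.356 in the labelled double knockouts. Of 10 stromal markers found, 2 were tested and 0 called, at sums of 7.60 and 8.02 against 4.01 and 9.13 FPKM. Of 10 immune markers 5 were tested and 1 (Itgam) was called lower, at sums of 12.9 and 21.7 against 11.1 and 19.6 FPKM; that call was lost in 7 of 12 alternative fits, with any 1 library left out and with the replicate block among them (limma, adjusted p of up to 0.163, and 0.0904 with the block). Endothelial markers other than Lyve1, which was called higher, summed to 1.06 and 1.84 FPKM in controls and 1.55 and 1.65 in the labelled double knockouts. Of 12 pancreatic acinar markers 4 were tested and 1 (Ctrb1) was called higher. The whole list summed to 9936 and 6201 FPKM in controls and 7238 and 4978 in the labelled double knockouts, mostly Zg16 and Clps, which intestinal epithelium also makes and which were not called (log2 fold change -0.39 and -0.49). The other 10 summed to 1.75 and 11.3 FPKM in controls and 53.6 and 22.1 in the labelled double knockouts. In the labelled double knockouts that sum was mostly Ctrb1, a chymotrypsinogen (0.217 and 0.421 against 50.1 and 14.3 FPKM, limma, adjusted p = 0.0164, lost without either control). In the controls it was mostly Pnliprp1, at 1.25 and 9.37 FPKM. Pnliprp1 stood at 2.56 and 6.27 FPKM in the labelled double knockouts and was not called (limma, adjusted p = 0.964). The defining genes Prss1 and Cpb1 were listed at 0 in every library, and Cpa1 and Cel did not exceed 0.0718. Whether other cells or tissue contribute to the gastric values was not tested.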

How the data were processed

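RNA-seq of jejunal epithelium was available for 4 libraries, 2 per group, grouped by their titles. Build mm9 and the tools Cuffdiff, Cuffnorm, Cufflinks (2.1.1) and TopHat2 (2.0.9) are named, without roles, per the submitters' processing notes. The main table deposited by the authors has 23735 rows and states no unit. Its values lie close to the FPKM deposited for each library and were read as FPKM normalized across libraries. The authors' deposited comparison holds group FPKM, p-values and q-values, per the file headers. Strand is not stated and no read counts were used, so depth is unknown.

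Rows sharing a symbol were summed (160 symbols) and 1030 short RNA symbols were left out. The 10885 genes averaging 1 FPKM or more were tested with limma (3.58.1, under R 4.3.3). The model had genotype alone, values as log2(FPKM + 1) and a variance trend with intensity; tests were two-sided, with Benjamini-Hochberg adjustment over all genes tested. This scale understates changes of low genes. The procedure was tested on simulated data, with changes placed only in more abundant genes and with spreads shuffled among genes. It therefore did not cover the levels of the stomach genes tested here. An exact permutation test of 2 against 2 libraries cannot give a p under 0.333. The labels call the libraries biological replicates.

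The members and gene lists were chosen with earlier results of these data known. The rule for named genes took the 9 members, up to 3 called genes in each direction from every list (the most abundant where none was called), the 3 genes nearest in level, and the neighbouring genes; uncalled, scarce or further genes (such as Ctsd, Bace1, Atp1b1, Gpa33, Aqp4, Kcnq1, Cldn18, Sst and those listed at 0) were named after their values were seen. Alternatives changed the pseudocount, filter, scaling, source of FPKM, variance model and replicate block, and left out each library.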

Additional observations from a re-analysis of the deposited data

How the results depend on the processing

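All 6 tested genes kept their direction in every alternative that could test them. Their calls changed only when a library was left out; a mean of at least 5 FPKM kept just Ctse, Pgc and Vsig1 in the test, all 3 called. Leaving out 1 library gave 157 to 685 genes called in all (1041 with every library) and 2 to 6 of the 9 genes. Of the related genes, 13 to 15 were called (23 with every library). In these fits the lone library adds nothing to a gene's own spread, which rests on the 2 libraries of the other group. The counts do not separate this from the effect of the library left out. With no filter but a mean above 0 the related genes called were 15, where 16716 genes entered the adjustment. The replicate numbers are shared by the groups, but deviations of same-numbered libraries correlated at r = -0.00497 across genes, so they were not taken as pairs; with the replicate block 786 genes and the same 6 of the 9 were called. The FPKM of the per-library files moved the median of all genes to 0.17 from 0.02 on the log2 scale and the split to 482 higher and 451 lower, from 410 and 631. Uncalled genes changed sign: Lipa to 0.0857 with the per-library files and Ctsd to 0.10 with quantile normalization and 0.12 with the per-library files. With 1 library left out, Lipa ranged from -0.48 to 0.21 and Ctsd from -0.25 to 0.20; both were positive without labelled double knockout replicate 2, and Ctsd also without control replicate 2 (0.04). The cause was not tested. Without read counts, low normalized values such as 0.0733 FPKM of Cym have no counting error of their own. Only the estimate for the library alone has an interval (0 to 0.158 FPKM). Such intervals did not always hold their own estimate. For Pgc they ran from 25.3 to 31.5 FPKM beside 35.4 in labelled double knockout replicate 1. In replicate 2 they ran from 14.8 to 20.4 beside 21.8.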

Other observations

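Acid lipases other than Lipf were measured in the same libraries. Lipf was listed at 0 throughout, while Lipk, the next gene on chromosome 19, stood at 0.121 and 0.0354 FPKM in controls and at 1.12 and 0.634 in the labelled double knockouts, under the filter. Lipn was listed at 0 in both controls and at 8.19 and 1.29 FPKM in the labelled double knockouts, and was not called (limma, adjusted p = 0.108); the limma adjusted p ranged from 0.0147 to 0.292 over its alternatives, and it was called with a pseudocount of 0.1 (0.0450) and without labelled double knockout replicate 2 (0.0147). Both are known mainly from the epidermis. Lipa, the lysosomal acid lipase and the most abundant of the family, stood at 49.99 ± 1.47 and 46.8 ± 15.9 FPKM (SD, n = 2 each; limma, adjusted p = 0.777). Slc26a9, a chloride transporter of gastric mucous cells, was listed at 0 in both controls and stood at 0.745 and 0.401 FPKM in the labelled double knockouts.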
